A study of Mus musculus with 12 samples.

Results

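Circadian output regulators carry the rhythm of the molecular clock to the genes of a tissue. The 9 genes Dbp, Tef, Hlf, Nfil3, Ciart, Bhlhe40, Bhlhe41, Rora and Usp2 were taken by name from the 21936 genes measured in mouse liver. Usp2 encodes a deubiquitinating enzyme and not a transcription factor, so the 9 genes are called output regulators here. All 9 passed the filter on low counts in each comparison.

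In liver, CLOCK and BMAL1 (encoded by Arntl) bind E-box sequences and switch on clock and output genes, and the period and cryptochrome proteins feed back on them. DBP, TEF and HLF, the PAR bZIP factors, activate genes through D-box sequences, and NFIL3 binds the same sequences as a repressor and normally peaks at the opposite time of day from DBP. RORA activates, and the REV-ERB proteins (Nr1d1, Nr1d2) repress, genes through ROR elements, of which Arntl and Nfil3 are known examples. Transcripts such as Dbp swing widely over the day in mouse liver, so that the hour of sampling bears on their level.

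RNA from whole liver was sequenced from 3 groups of C57BL/6 mice (C57BL/6 J in the study's methods) with 3 libraries each. All mice were male, were bought at 6 weeks of age, were fed for 1 week and then received CCl4, a hepatotoxin, at 1 mL/kg intraperitoneally 2 times per week for 8 weeks. LFG mice were killed at the end of CCl4. REG mice then received 200 µL PBS, and hADMSCs-Exo mice 250 µg of exosomes of human adipose mesenchymal stem cells in 200 µL PBS, both into the tail vein, 2 injections per week over 4 weeks. LFG mice were thus killed 4 weeks before the others, so that age, time after CCl4 and injections cannot be told apart in comparisons with LFG, and no group without CCl4 was among the libraries. The hour of killing is not given in the sources used here, and its part in the values was not tested. Mice given whole hADMSCs (3 samples) are not analysed here. The columns used for hADMSCs-Exo are headed MSC_E and were matched to the exosome samples by that heading and the treatment label, so that every hADMSCs-Exo value rests on this match. The labels do not say whether each library came from 1 mouse, so that p-values measure the spread between these libraries.

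The libraries held 13837445 to 19840917 counts over genes. LFG 3 stood apart on the first principal component, which held 48.7% of the variance, at 96.7 against -79.0 and -56.2 for LFG 1 and LFG 2 and between -17.7 and 17.0 for the other libraries. In LFG 3 the 8 stellate cell and myofibroblast markers summed to 21.2 CPM (counts scaled to a common library size), against 1179 in LFG 1 and 701 in LFG 2. The macrophage markers summed to 126, 1093 and 943 CPM in the same order. Comparisons with LFG are therefore given with and without LFG 3, the latter as a fit of 3 against 2 libraries. The 8 hepatocyte markers were at 0 in no library and summed to between 82971 and 171419 CPM, so the tissue carried the markers of its label. In whole liver, fewer cells of a type and less RNA per cell cannot be told apart.

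Short promoter windows were searched for the sequences through which the clock acts. Windows from 250 bases before to 50 after the RefSeq start (GRCm38.p6) were held for 8 of the 9 genes, Tef having 2 windows. No window was held for Bhlhe40, so that gene was not searched. The E-box CACGTG, which reads the same on both strands, was in 4 of the 9 windows and in 7.15% of all 32851 windows. It stood once in Bhlhe41, once in each window of Tef and 3 times in Ciart. The D-box TTATGTAA or TTACGTAA was in 0 of the 9 windows, and in 1.06% of all windows. The ROR element TAGGTCA or TGGGTCA, on either strand, was in 1 of the 9 windows, that of Nfil3, and in 6.45% of all. The E-box and the D-box TTACGTAA share the letters ACGT, and no match found in the 9 windows overlapped another. A match is a run of letters only, and these windows are short, so that a gene without a match may hold such sequences elsewhere.

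The stretches that hold the matches, outside annotated exons where longer, are shown 5′ to 3′ on the strand of the gene with the E-box, or the reverse complement of the ROR element, in capitals. Ciart lies at chr3:95882252-95882478 on the minus strand, Bhlhe41 at chr6:145865559-145865670 on the minus strand, the inner start of Tef at chr15:81811164-81811413 on the plus strand, the outer start of Tef at chr15:81802536-81802561 on the plus strand, and Nfil3 at chr13:52981040-52981061 on the minus strand.
Ciart: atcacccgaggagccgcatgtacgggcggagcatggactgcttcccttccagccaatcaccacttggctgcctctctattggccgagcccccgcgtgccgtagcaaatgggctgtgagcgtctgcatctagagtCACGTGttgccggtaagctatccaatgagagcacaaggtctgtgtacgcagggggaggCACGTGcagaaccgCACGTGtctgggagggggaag
Bhlhe41: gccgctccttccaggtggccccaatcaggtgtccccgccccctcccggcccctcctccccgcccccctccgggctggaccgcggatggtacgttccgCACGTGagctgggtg
Tef inner start: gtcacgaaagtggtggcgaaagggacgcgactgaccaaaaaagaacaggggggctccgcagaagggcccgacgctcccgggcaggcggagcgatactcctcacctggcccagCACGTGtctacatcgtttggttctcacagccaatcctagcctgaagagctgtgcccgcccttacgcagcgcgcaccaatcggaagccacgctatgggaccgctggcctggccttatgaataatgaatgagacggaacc
Tef outer start: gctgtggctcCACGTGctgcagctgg
Nfil3: cgctcggaacTGACCTActaac
The 3 E-boxes of Ciart began 116, 58 and 44 bases before the RefSeq start, and that of Bhlhe41 153 bases before it. Those of Tef began 138 bases before the inner and 127 before the outer RefSeq start, and the element of Nfil3 12 bases before its RefSeq start. The gene spans given below start farther upstream for Tef and Nfil3. By those spans the E-boxes of Tef and the element of Nfil3 lie within the gene, and those of Ciart and Bhlhe41 before it.

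Levels between genes were compared in FPKM, the deposited counts scaled by gene length and library size. In LFG the order by mean was Tef at 21.2 ± 3.85 FPKM (SD, n = 3), Dbp at 19.7 ± 17.9, Bhlhe40 at 17.3 ± 4.69, Nfil3 at 17.2 ± 14.0, Usp2 at 15.2 ± 3.31, Ciart at 11.96 ± 8.85, Hlf at 7.14 ± 1.67, Rora at 4.67 ± 1.09 and Bhlhe41 at 0.382 ± 0.317. In that order, only Hlf and Rora, and Rora and Bhlhe41, were neighbours whose libraries did not overlap. Over LFG 1 and LFG 2 alone Nfil3 led at a mean of 23.6 FPKM, with Tef at 19.0, Bhlhe40 at 14.7, Usp2 at 13.4 and Dbp at 9.39, and dividing FPKM by the TMM factor put Dbp (21.6) before Tef (21.05) in LFG. In REG, Dbp led at 52.6 ± 8.65 FPKM (SD, n = 3), followed by Bhlhe40 at 31.0 ± 18.2, Tef at 23.8 ± 3.10, Usp2 at 14.7 ± 3.60, Ciart at 9.80 ± 4.09, Hlf at 7.32 ± 2.35, Nfil3 at 4.50 ± 1.66, Rora at 2.90 ± 0.381 and Bhlhe41 at 0.405 ± 0.0422. There the neighbours apart were Tef from Usp2 and Rora from Bhlhe41. In hADMSCs-Exo the order was Dbp at 26.1 ± 15.5 FPKM (SD, n = 3), Tef at 24.4 ± 5.83, Bhlhe40 at 24.0 ± 8.86, Usp2 at 17.6 ± 1.74, Ciart at 15.3 ± 0.668, Nfil3 at 10.6 ± 3.17, Hlf at 9.29 ± 2.01, Rora at 3.86 ± 1.40 and Bhlhe41 at 0.417 ± 0.470. There Ciart stood clear of Nfil3, Hlf of Rora and Rora of Bhlhe41. By mean over 3 libraries, Nfil3 thus lay above Usp2 in LFG, below Hlf in REG and between Ciart and Hlf in hADMSCs-Exo, while Rora and Bhlhe41 closed the order in each group.

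Differences of 1 gene between libraries were taken in CPM after TMM scaling. Over the 9 libraries the highest level was 10.3 times the lowest for Nfil3, 8.68 times for Bhlhe41, 8.63 times for Dbp, 5.50 times for Ciart and 4.69 times for Bhlhe40. Usp2, Hlf, Tef and Rora spanned less, from 2.61 times for Usp2 to 2.15 times for Rora. LFG 3 held the highest level of Tef, Hlf, Ciart and Usp2.

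**Figure D1:**
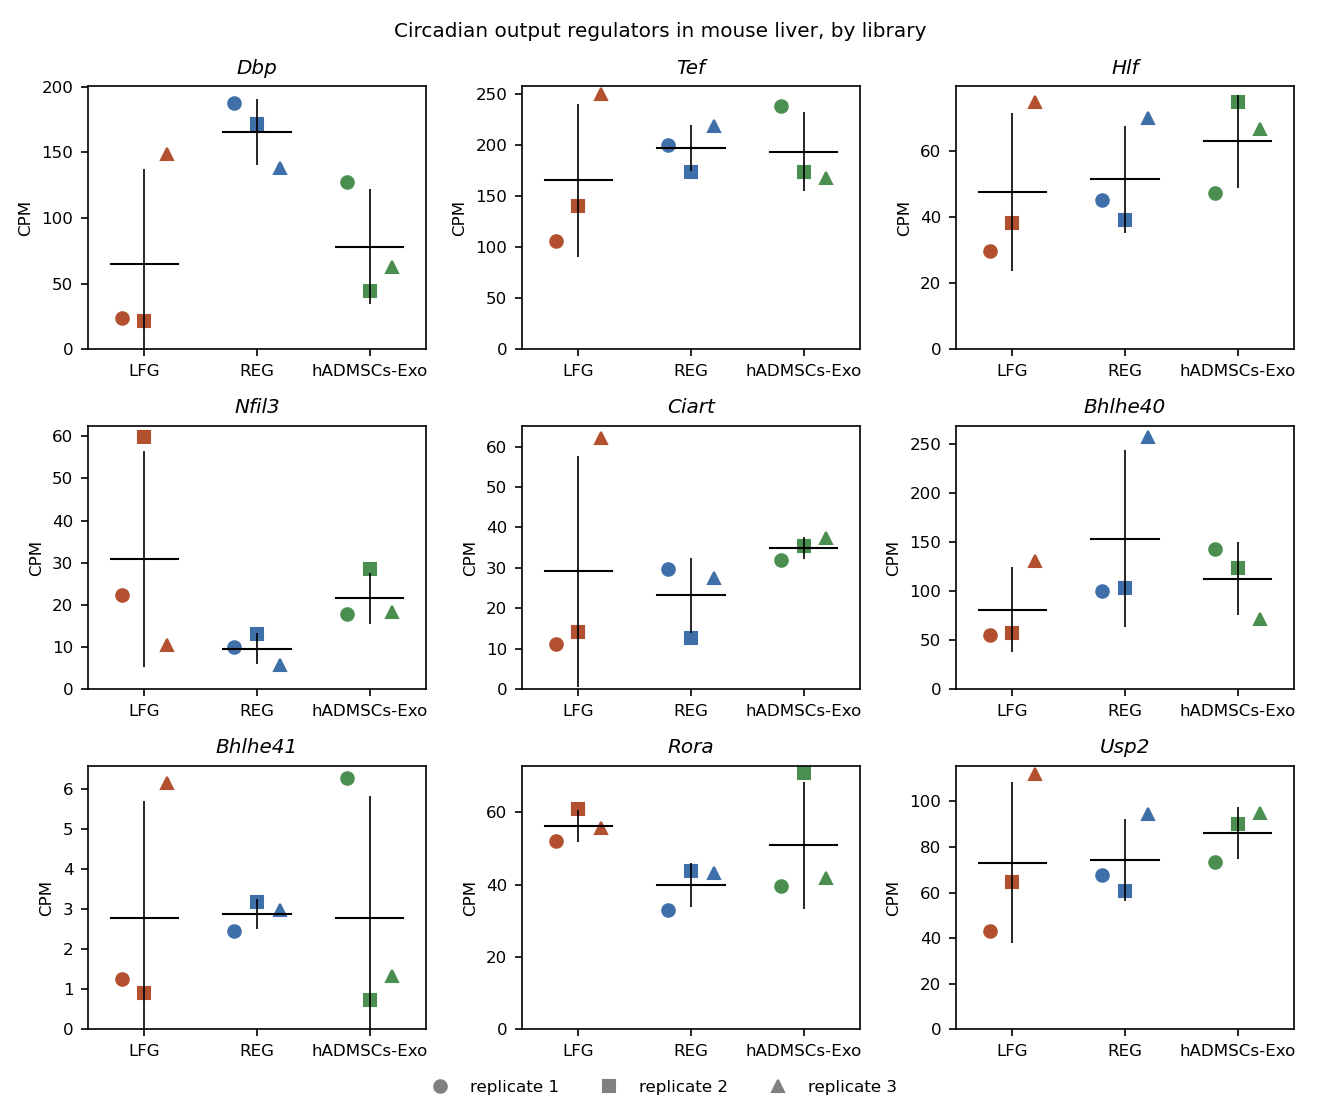
CPM (TMM-scaled) of each output regulator in each library, with the replicate number as the symbol, the group mean as a line and 1 SD as a bar that stops at 0. Dbp in LFG 1 and LFG 2 lies below all other libraries and in LFG 3 among those of REG, while Nfil3 in LFG 2 lies above all other libraries.

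Dbp, on chromosome 7 (45705088 to 45710203, plus strand), encodes the PAR bZIP factor with the widest daily swing. It stood at 23.7, 21.7 and 149 CPM in LFG 1 to 3, at 188, 172 and 138 in REG 1 to 3 and at 128, 44.2 and 62.6 in hADMSCs-Exo 1 to 3. All 3 hADMSCs-Exo libraries were below all 3 REG libraries, and LFG split into 2 low libraries and 1 at the level of REG. Dbp shares 539 of its 2993 exon bases (18.01%) with Sphk2 on the opposite strand, and whether counting used strand is not given in the sources used here. Sphk2 had 301 to 733 counts per library, against 389 to 3127 for Dbp.

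Tef, a PAR bZIP factor on chromosome 15 (81802421 to 81826863, plus strand), stood at 106, 141 and 250 CPM in LFG, at 200.0, 174 and 218 in REG and at 238, 174 and 168 in hADMSCs-Exo. Its groups overlapped in all comparisons. Hlf, the PAR bZIP factor on chromosome 11 (90336536 to 90390895, minus strand), stood at 29.8, 38.3 and 74.9 CPM in LFG, at 45.3, 39.2 and 69.9 in REG and at 47.4, 74.8 and 66.6 in hADMSCs-Exo. In both genes LFG 1 and LFG 2 were lower than all other libraries, and LFG 3 was the highest for Tef and level with hADMSCs-Exo 2 for Hlf.

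Nfil3, the D-box repressor on chromosome 13 (52967209 to 52981073, minus strand), stood at 22.3, 59.7 and 10.6 CPM in LFG, at 9.92, 13.2 and 5.79 in REG and at 17.8, 28.6 and 18.4 in hADMSCs-Exo. The 3 REG libraries lay below the 3 of hADMSCs-Exo, and LFG 3 lay among those of REG. The ratio of Dbp to Nfil3 in CPM was 1.06, 0.364 and 14.1 in LFG 1 to 3, 18.9, 13.03 and 23.9 in REG 1 to 3 and 7.19, 1.55 and 3.40 in hADMSCs-Exo 1 to 3. Activator and repressor ran in opposing order, with Pearson r = -0.83 and Spearman rho = -0.87 of log2 CPM over 9 libraries, as a description. The same r was -0.81 without LFG 3 and -0.70 after each group mean was taken out.

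**Figure D2:**
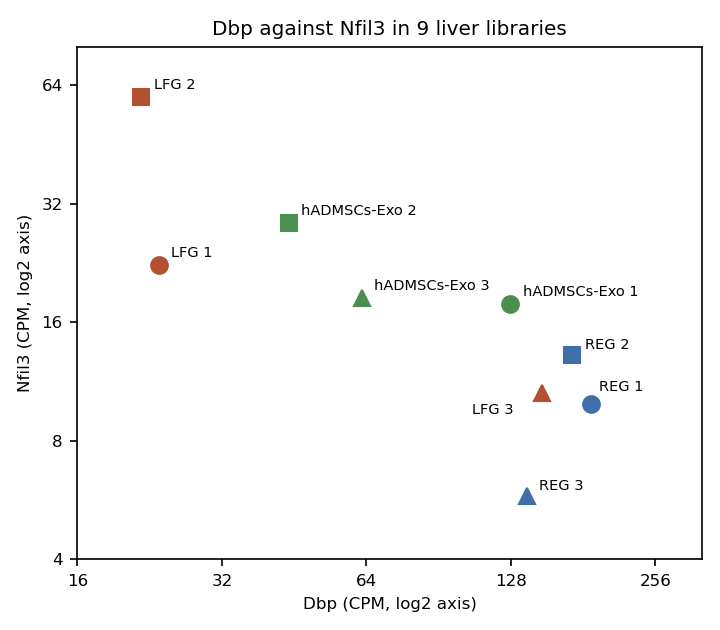
Dbp (x axis) against Nfil3 (y axis), both in CPM on log2 axes, for the 9 libraries, with colours for groups and symbols for replicate numbers. The 3 REG libraries and LFG 3 lie at high Dbp and low Nfil3, LFG 1 and LFG 2 at Dbp of 23.7 and 21.7 CPM, and hADMSCs-Exo between them.

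Ciart, a repressor that acts on CLOCK and BMAL1, lies on chromosome 3 (95878503 to 95882251, minus strand). It stood at 11.3, 14.2 and 62.0 CPM in LFG, at 29.6, 12.6 and 27.4 in REG and at 32.03, 35.5 and 37.3 in hADMSCs-Exo. The hADMSCs-Exo libraries were above those of REG and close to each other, with an SD of log2 CPM of 0.11 against 0.68 in REG and 1.33 in LFG. The median of that SD over all genes was 0.24 in hADMSCs-Exo, 0.23 in REG and 0.47 in LFG.

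Bhlhe40 and Bhlhe41 encode repressors (DEC1 and DEC2) that bind E-boxes. Bhlhe40, on chromosome 6 (108660629 to 108666925, plus strand), stood at 55.0, 57.7 and 131 CPM in LFG, at 100.1, 103 and 258 in REG and at 144, 124 and 71.3 in hADMSCs-Exo. REG 3 alone was above 200 CPM. Bhlhe41, on the same chromosome (145858243 to 145865558, minus strand), had 12 to 106 counts per library, the fewest of the 9 genes, and stood at 1.26, 0.894 and 6.17 CPM in LFG, at 2.46, 3.19 and 2.97 in REG and at 6.28, 0.723 and 1.32 in hADMSCs-Exo. Its REG libraries were close together, and 1 library in each other group was far above the rest.

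Rora, the nuclear receptor on chromosome 9 (68653786 to 69388246, plus strand), stood at 52.1, 61.0 and 55.5 CPM in LFG, at 32.9, 43.8 and 43.2 in REG and at 39.6, 71.0 and 41.9 in hADMSCs-Exo. It was the 1 output regulator whose REG and LFG libraries did not overlap, LFG 3 being close to LFG 1 and LFG 2. Usp2, on the same chromosome (44067021 to 44095627, plus strand), stood at 42.9, 64.4 and 112 CPM in LFG, at 67.6, 60.7 and 94.6 in REG and at 73.4, 90.0 and 94.9 in hADMSCs-Exo. Its groups overlapped in all comparisons. Usp2 shares 200 of its 4818 exon bases with Gm49380, which had 0 counts in every library.

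The comparison of REG with LFG asks what 4 weeks of recovery with PBS did after CCl4. Of the 9 output regulators 0 were called differentially expressed (edgeR's quasi-likelihood test, adjusted p under 0.05, with a log2 fold change of 1 or more in size), beside 0 of 12517 genes tested (0%). DESeq2 also called 0 of the 9 (1.38% of all genes), while limma voom with quality weights called 3 (10.3% of all genes). At an unadjusted p under 0.05 in edgeR, 2 of the 9 were lower and none higher, beside 6.70% of all genes lower and 11.3% in either direction. These were Nfil3, with a log2 fold change of -1.67 ± 0.63 (SE, edgeR adjusted p = 0.410), and Rora, with -0.48 ± 0.18 (edgeR adjusted p = 0.404). The value of Nfil3 was -0.77 without LFG 2, its highest library (edgeR adjusted p = 0.746). Dbp had 1.36 ± 0.76 (edgeR adjusted p = 0.529) and Bhlhe40 0.93 ± 0.51 (edgeR adjusted p = 0.524). The other 5 lay between -0.31 for Ciart and 0.26 for Tef. The libraries of 1 of the 9, Rora, did not overlap, beside 18.9% of all genes (2 of the 9 without REG 2, beside 21.8%, and 2 without REG 3, beside 27.7%). The median log2 fold change was 0.081 for the 9 and -0.068 for all genes tested.

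Without LFG 3 the same comparison called 3 of the 9, beside 10.7% of 12948 genes (1391). Dbp rose 7.53-fold (log2 2.91 ± 0.21, edgeR adjusted p = 0.00855, 3 REG and 2 LFG libraries), Nfil3 fell 4.11-fold (log2 -2.04 ± 0.45, edgeR adjusted p = 0.0280) and Bhlhe41 rose 2.72-fold (log2 1.44 ± 0.39, edgeR adjusted p = 0.0439). Tef (log2 0.72 ± 0.20, edgeR adjusted p = 0.05004) and Bhlhe40 (log2 1.49 ± 0.42, edgeR adjusted p = 0.0504) lay just past the threshold for p. At an unadjusted p under 0.05, 6 of the 9 were higher and 2 lower, beside 18.2% of all genes higher, 19.1% lower and 37.3% in either direction. The sign of Ciart changed, from -0.31 to 0.91. With all libraries Bhlhe41 was at 0.08 ± 0.74 (edgeR adjusted p = 0.978). The libraries of 7 of the 9, all but Ciart and Usp2, then did not overlap, beside 55.6% of all genes, where leaving out a library can only raise such a count. In the same fit 3 of 7 tested stellate cell and myofibroblast markers were called lower (Col1a1, Col1a2 and Col3a1), and their part in these values was not tested.

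The comparison of hADMSCs-Exo with LFG covers the same 4 weeks with exosomes. It called 0 of the 9, beside 0 of 12489 genes (0%), and 0 of the 9 reached an unadjusted p under 0.05, beside 5.98% of all genes. DESeq2 and limma voom also called 0 of the 9, beside 0.356% and 0.00801% of all genes. Their log2 fold changes ran from -0.53 ± 0.59 for Nfil3 to 0.48 ± 0.42 for Bhlhe40 (SE, edgeR adjusted p = 0.913 and 0.895). No gene of the 9 had groups that did not overlap, beside 12.3% of all genes (1 of the 9 without hADMSCs-Exo 2, beside 19.5%). The median was 0.23 for the 9 and -0.059 for all genes. Without LFG 3, 1 of the 9 was called, beside 5.97% of 12955 genes (773). Ciart rose 2.77-fold (log2 1.47 ± 0.19, edgeR adjusted p = 0.0185, 3 hADMSCs-Exo and 2 LFG libraries), against 0.27 ± 0.62 with all libraries (edgeR adjusted p = 0.961). Dbp had a log2 fold change of 1.79 ± 0.43 (edgeR adjusted p = 0.0519), against 0.28 ± 0.80 with all libraries (edgeR adjusted p = 0.968). Without LFG 3, 6 of the 9 were higher at an unadjusted p under 0.05, beside 12.8% of all genes higher and 28.5% in either direction. The libraries of these 6 (Dbp, Tef, Hlf, Ciart, Bhlhe40 and Usp2) did not overlap without LFG 3, beside 48.8% of all genes. In that fit 6 of 7 tested stellate cell and myofibroblast markers were called lower, and their part in these values was not tested. This comparison shares its LFG libraries with the one above.

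**Figure D3:**
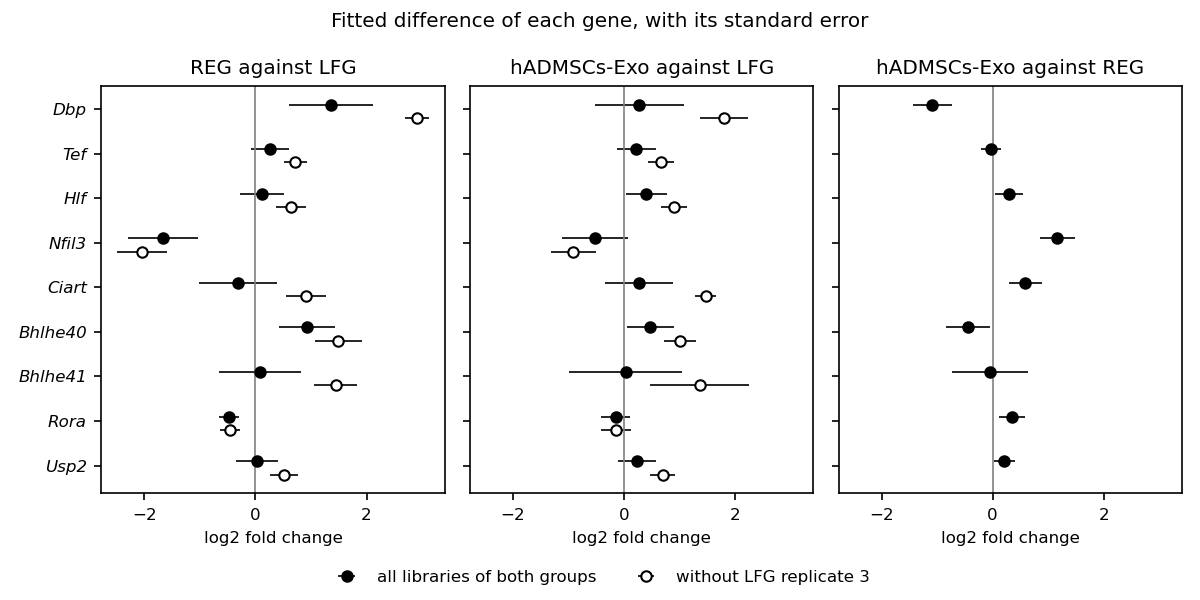
Log2 fold change (x axis) of each output regulator in the 3 comparisons, from edgeR, with 1 SE as the bar, from all libraries of both groups (filled) and without LFG replicate 3 (open). Dbp in REG against LFG moves from 1.36 to 2.91 without LFG 3, and Rora from -0.48 to -0.46.

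The comparison of hADMSCs-Exo with REG sets exosomes against PBS over the same 4 weeks, with no LFG library in the fit. The Dbp libraries were all lower and the Nfil3 libraries all higher with exosomes, but edgeR called neither gene. The fit called 0 of the 9, beside 1 of 12337 genes (0.00811%). Dbp was 2.13-fold lower (log2 -1.09 ± 0.35, edgeR adjusted p = 0.411), and Nfil3 was 2.24-fold higher (log2 1.16 ± 0.31, edgeR adjusted p = 0.394). These 2 of the 9 reached an unadjusted p under 0.05, beside 10.0% of all genes. DESeq2 called Nfil3 (log2 1.16, DESeq2 adjusted p = 0.0453), among 68 genes (0.423%), and limma voom called 0 of the 9, beside 0.0243% of all genes. Over the alternatives tried the adjusted p of Nfil3 ran from 0.0453 to 1.00, and that of Dbp from 0.0926 to 1.00. Their signs held in all of these.

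Ciart, at 0.59 ± 0.30 (edgeR adjusted p = 0.548), was the other gene whose libraries did not overlap, so that 3 of the 9 did not, beside 15.5% of all genes (5 of the 9 without REG 3, beside 29.8%). Rora had 0.35 ± 0.24, Hlf 0.29 ± 0.25 and Usp2 0.21 ± 0.19 (SE of log2 fold change), with overlapping libraries. Tef, at -0.03 ± 0.17, and Bhlhe41, at -0.05 ± 0.68, had the smallest fitted differences, and Bhlhe40 had -0.45 ± 0.40. The median was 0.21 for the 9 and 0.0080 for all genes. DBP, TEF and HLF act through the same sequences. Of their genes only Dbp had libraries apart, and the difference between the 3 genes was not tested. Beside this, 7 of 7 tested stellate cell and myofibroblast markers had a negative log2 fold change, 6 of them at an unadjusted p under 0.05, and DESeq2 called 3 of 8 lower (Col1a1, Col3a1 and Acta2). Their sum was 35.4 to 84.6 CPM in hADMSCs-Exo and 109 to 203 in REG, with Tagln at 0 in 3 REG and 2 hADMSCs-Exo libraries. The hepatocyte markers summed to 122801 to 140375 CPM in hADMSCs-Exo and 164585 to 171419 in REG, most of it Alb (90020 to 106924 and 132067 to 139469 CPM). Of these 8 markers 4 were higher and 4 lower with a median log2 fold change of 0.052, and the 2 at an unadjusted p under 0.05, Hnf4a (0.43 ± 0.15) and Cyp2e1 (0.67 ± 0.19), were higher. The part of either in the values of Dbp and Nfil3 was not tested.

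The other marker lists are given as sums over their genes. Lymphocyte markers summed to 3.49 to 17.0 CPM in LFG, 11.0 to 19.8 in REG and 21.1 to 24.3 in hADMSCs-Exo, with Ncr1 at 0 in 1 LFG library. Macrophage markers summed to 126 to 1093, 368 to 1058 and 697 to 865 CPM in the same order of groups. Cholangiocyte markers summed to 49.98 to 193, 68.4 to 74.5 and 53.1 to 128 CPM, with Cftr at 0 in 1 LFG library, and endothelial markers to 48.8 to 134, 84.3 to 232 and 63.9 to 171 CPM. With all libraries edgeR and DESeq2 called none of these genes, and limma voom called Krt7, Epcam and Spp1, lower in REG than in LFG, and of the hepatocyte markers Tat, lower there too. Without LFG 3 the edgeR calls were Krt7, Epcam and Spp1, lower in REG, and Epcam and the macrophage marker Adgre1, lower in hADMSCs-Exo, and of the hepatocyte markers Cyp2e1, higher in both. For all marker lists the part in the values of the output regulators was not tested.

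The 9 genes did not vary as 1 block. Over the 9 libraries Hlf and Usp2 were the pair most alike (r = 0.97, rho = 0.92 of log2 CPM, n = 9 libraries), with r = 0.96 both without LFG 3 and within groups. Ciart was close to both, with r = 0.88 to Usp2 and 0.87 to Hlf. Dbp was less like Hlf (r = 0.35) and Usp2 (r = 0.41) than like Tef (r = 0.82) and Bhlhe41 (r = 0.80). Rora had r = -0.65 to Dbp and 0.60 to Nfil3. These values describe 9 libraries that share groups and an outlying library.

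Among 12760 genes, those most like Dbp over the 9 libraries were Mtx2 (r = 0.98), Tiam2 (0.97), Fbxo21 (0.97), Zfp622 (0.97) and Rassf7 (0.96). Those most opposed were Slf2 (r = -0.97), Lnx2 (-0.97), Ddhd1 (-0.97), Traf3 (-0.96) and Skil (-0.96). For Nfil3 the most alike were Rnd1 (r = 0.96), Insig2 (0.93), Dnmbp (0.92), Sesn2 (0.92) and Btg2 (0.91), and the most opposed Pstk (r = -0.95), Ddx59 (-0.95), Tmem230 (-0.93), 1110004F10Rik (-0.93) and Dpy30 (-0.92). No output regulator was in the lists of the other.

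The core clock genes feed the output regulators. Of 11 listed, 10 were tested, and edgeR called 0 in any comparison with all libraries. DESeq2 called Cry1 in hADMSCs-Exo against REG (rose 3.12-fold, log2 1.64, DESeq2 adjusted p = 0.00325), and limma voom called Per1 (fell 2.42-fold, log2 -1.28, limma adjusted p = 0.0331) and Cry1 (fell 3.37-fold, log2 -1.75, limma adjusted p = 0.0236) in REG against LFG. By edgeR in hADMSCs-Exo against REG, Arntl (log2 1.74 ± 0.69, edgeR adjusted p = 0.474) and Cry1 (1.65 ± 0.37, edgeR adjusted p = 0.358) were higher at an unadjusted p under 0.05. Nr1d1 (-1.32 ± 0.47, edgeR adjusted p = 0.432) was lower at that p, which 10.0% of all genes reached in either direction. Arntl had 6, 26 and 7 counts in REG and 18, 73 and 29 in hADMSCs-Exo, with overlap. Cry1, a cryptochrome, stood at 4.25, 4.94 and 7.43 CPM in REG and at 9.47, 25.5 and 17.3 in hADMSCs-Exo, without overlap. Nr1d1, the REV-ERB alpha gene, stood at 67.4, 53.2 and 25.6 CPM in REG and at 33.0, 15.4 and 10.3 in hADMSCs-Exo, with overlap. The median of the list was 0.40.

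Arntl, the activator gene, stood at 6.65, 6.202 and 0 CPM in LFG (158, 111 and 0 counts), at 0.370, 1.43 and 0.372 in REG and at 1.07, 4.40 and 1.83 in hADMSCs-Exo. The 3 libraries lowest in Dbp, LFG 1, LFG 2 and hADMSCs-Exo 2, were the 3 highest in Arntl, and Arntl had no count in LFG 3. In REG against LFG, 1 core clock gene was higher at an unadjusted p under 0.05 (Per3, 0.84 ± 0.31) and 3 were lower (Clock, Per1 and Cry1, from -1.32 to -0.91), beside 11.3% of all genes in either direction, and the median over the list was -0.61. None reached it in hADMSCs-Exo against LFG, where that median was -0.29.

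Without LFG 3, REG against LFG called 4 of the 10 core clock genes, beside the 10.7% of all genes given above. Arntl fell 8.49-fold (log2 -3.09 ± 0.56, edgeR adjusted p = 0.0181), against -2.56 ± 1.33 with all libraries (edgeR adjusted p = 0.505). Clock fell 2.19-fold (-1.13 ± 0.28, edgeR adjusted p = 0.0366, and -0.91 ± 0.36 with all libraries) and Cry1 2.82-fold (-1.50 ± 0.41, edgeR adjusted p = 0.0475, and -1.32 ± 0.45 with all libraries). Per3, a period gene, rose 2.17-fold (1.12 ± 0.26, edgeR adjusted p = 0.0317). Per1 was then at -0.78 ± 0.33 (edgeR adjusted p = 0.127), and the median of the list was -0.36. In hADMSCs-Exo against LFG 0 of the 10 were called without LFG 3, where Arntl and Clock were lower at an unadjusted p under 0.05, and the median was -0.12.

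**Figure D4:**
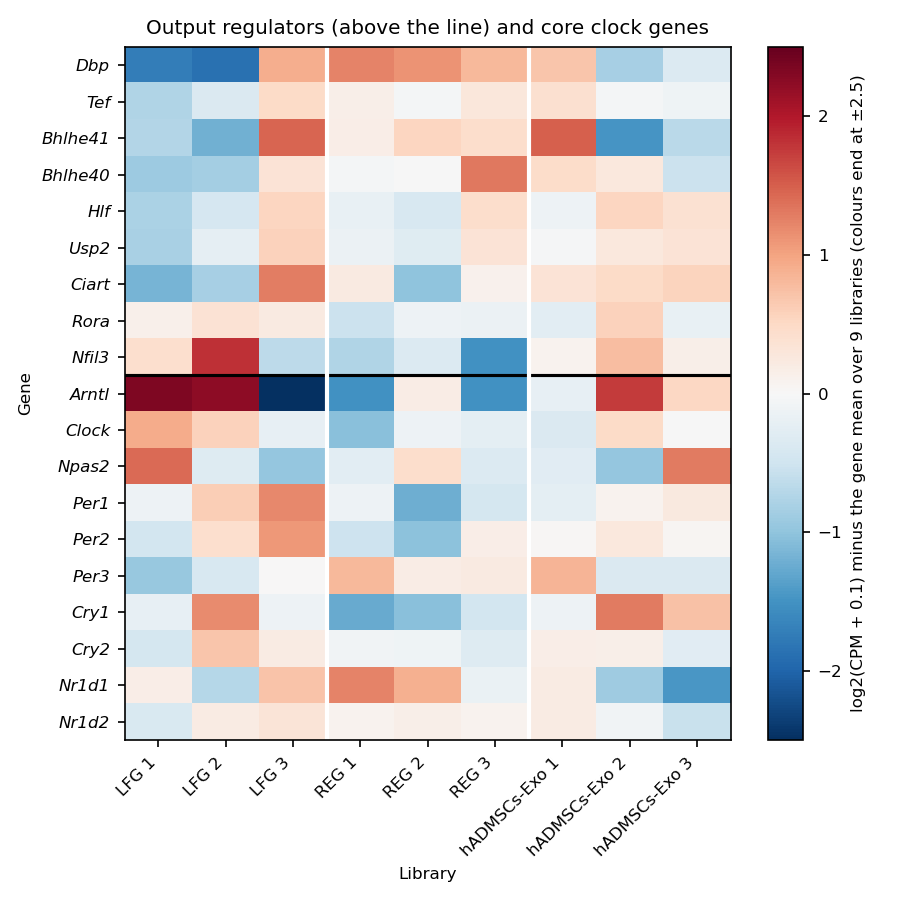
Log2(CPM + 0.1) of each gene minus its mean over the 9 libraries, as colours that end at ±2.5, for the output regulators (above the line, in an order set by hand) and 10 of the 11 core clock genes (below it). Dbp is low and Arntl high in LFG 1 and LFG 2, and the reverse is seen in LFG 3.

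Genes that PAR bZIP factors are known to act on stood next in the chain. Of the 8, all tested, edgeR and DESeq2 called 0 in any comparison with all libraries, and limma voom called Cyp2b10 in REG against LFG (log2 -1.34, limma adjusted p = 0.0458). In REG against LFG, Cyp7a1, the rate-limiting enzyme of bile acid synthesis, was higher at an unadjusted p under 0.05 (log2 1.37 ± 0.53, edgeR adjusted p = 0.414), standing at 42.1, 211 and 102 CPM in LFG and at 310, 297 and 300 in REG. No other of the 8 reached it there, and none did in the other comparisons. Alas1, the first enzyme of heme synthesis, had 0.75 ± 0.35 in hADMSCs-Exo against REG (edgeR adjusted p = 0.514), and Por, the electron donor of the cytochromes P450, had 0.30 ± 0.20 (edgeR adjusted p = 0.648). On the other side Cyp2a4 had the value farthest from 0 among the 8 in that comparison, at -2.16 ± 1.04 (edgeR adjusted p = 0.531). It is a cytochrome P450 so like Cyp2a5 that reads may be split between them. Cyp2a4 stood at 130, 3.68 and 16.3 CPM in REG 1 to 3 and at 14.9, 11.4 and 7.50 in hADMSCs-Exo 1 to 3. Its groups overlapped, and REG 1 alone stood far above the rest. Cyp2c50 was at -0.39 ± 0.25 and Cyp7a1 at -0.21 ± 0.30, so that 5 of the 8 were higher and 3 lower. The medians of the list were 0.24 in REG against LFG, 0.51 in hADMSCs-Exo against LFG and 0.32 in hADMSCs-Exo against REG. Without LFG 3 the first 2 medians were 0.60 and 0.76, and Cyp7a1 in REG against LFG was at 1.31 ± 0.57 (edgeR adjusted p = 0.137). In that fit Cyp2b10 fell 2.46-fold in REG against LFG (log2 -1.30 ± 0.29, edgeR adjusted p = 0.0290), against -0.82 ± 0.75 with all libraries (edgeR adjusted p = 0.692). In hADMSCs-Exo against LFG, Cyp2a4 fell 4.86-fold without LFG 3 (log2 -2.28 ± 0.29, edgeR adjusted p = 0.0185), against -1.75 ± 1.00 with all libraries (edgeR adjusted p = 0.825). Nr1i3, the nuclear receptor CAR, rose 2.43-fold without LFG 3 (log2 1.28 ± 0.29, edgeR adjusted p = 0.0441), against 0.48 ± 0.51 with all libraries (edgeR adjusted p = 0.908).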

How the data were processed

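The authors isolated RNA with Trizol and used the NEBNext Ultra kit for libraries. They deposited raw counts of each gene together with FPKM, which matched counts divided by length and library total (largest relative difference 9.19e-07). Per the labels, the submitters' processing notes name cutadapt 1.15, HISAT2 2.0.5, HTSeq 0.9.1, DESeq 1.30.0 and the build GRCm38, while the use of strand is not given in the sources used here.

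Counts were tested with edgeR 4.0.16 (R 4.3.3; quasi-likelihood test, two-sided, TMM, its filter on low counts, Benjamini-Hochberg over all genes) with only the 6 libraries of both groups in each fit. CPM used TMM library sizes, and correlations used log2 CPM with a prior count of 2. Fits were tested on simulated data: genes changed by 2 on the log2 scale were called in 47% (REG against LFG), 40.5% (hADMSCs-Exo against LFG) and 90.5% (hADMSCs-Exo against REG) of cases, on 12361, 12281 and 12209 genes, and genes changed by 1 in 0%, 0% and 17.5%.

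Alternatives were RLE size factors, DESeq2 1.42.0, limma 3.58.1 voom with quality weights, no filter, a minimum of 10 counts in each library, a fit over all 9 libraries, a block on replicate number, other call rules and each library left out. Same-numbered libraries deviated together in hADMSCs-Exo against LFG (r = 0.11, 0.31 and 0.19 over genes for numbers 1 to 3), which rests on the values and not on the labels. In REG against LFG number 2 went the other way (0.42, -0.21 and 0.32), and in hADMSCs-Exo against REG the values were 0.14, -0.0073 and 0.027, so that not every pair passed 0.1 there. Lists and FPKM without LFG 3, lists by the other tools, and overlap counts with each library left out, were added after the data were seen. Columns headed MSC_E were taken as the hADMSCs-Exo samples, because the treatment label of those samples alone names exosomes, while their titles read Exo. Replicates differed by more than sampling noise (chi-square per gene at least 28.6).

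The 9 output regulators and all gene lists were chosen with earlier results of these data known. Genes named were the 9, the core clock and PAR bZIP target genes, and the 5 most like and 5 most unlike Dbp and Nfil3. The values of 1 listed core clock gene are not reported here, though counts and medians of that list include it. Promoters were from RefSeq. Python 3.11.15 with pandas 2.3.3 and matplotlib 3.10.9 made the summaries and plots.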

Additional observations from a re-analysis of the deposited data

How the results depend on the processing

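The count of genes called moved with LFG 3, the tool and the call rule. In REG against LFG it was 0, and 225 with DESeq2, 1285 with voom, 537 at an unadjusted p with the same fold, and 0 to 1391 when 1 library was left out. In hADMSCs-Exo against LFG it was 0, and 58 with DESeq2, 1 with all 9 libraries in one fit, 1 with voom, 374 at an unadjusted p, and 0 to 773 when 1 library was left out. In hADMSCs-Exo against REG it was 1, and 68 with DESeq2, 0 with all 9 libraries in one fit, 3 with voom, 4 with no filter, 266 at an unadjusted p, and 0 to 1 when 1 library was left out. Of the 9 output regulators, REG against LFG called 3 with voom (Dbp 2.82, Nfil3 -2.13 and Bhlhe41 1.51 on the log2 scale, limma adjusted p = 0.00930, 0.0214 and 0.0307), 1 at an unadjusted p and 0 to 3 when 1 library was left out. In hADMSCs-Exo against LFG they were 0 to 1 when 1 library was left out, and in hADMSCs-Exo against REG 1 with DESeq2 and 2 at an unadjusted p. The cause of these moves was not tested. The median of the 9 ran from -0.24 to 0.72 in REG against LFG, from -0.12 to 0.90 in hADMSCs-Exo against LFG and from 0.076 to 0.40 in hADMSCs-Exo against REG when 1 library was left out.

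Signs of the 9 genes changed in 32 values, none of them called. Ciart in REG against LFG was 0.39 with voom and 0.0078 with the replicate block, and Bhlhe41 in hADMSCs-Exo against LFG was -0.083 with the block. The rest came from leaving out 1 library. In REG against LFG the log2 fold change then ran from -0.13 to 0.64 for Hlf, from -0.70 to 0.91 for Ciart, from -0.35 to 1.44 for Bhlhe41 and from -0.24 to 0.51 for Usp2. In hADMSCs-Exo against LFG it ran from -0.26 to 1.79 for Dbp, -0.014 to 0.66 for Tef, -0.91 to 0.37 for Nfil3, -0.12 to 1.47 for Ciart, -1.40 to 1.36 for Bhlhe41, -0.46 to 0.017 for Rora and -0.034 to 0.70 for Usp2. In hADMSCs-Exo against REG it ran from -0.21 to 0.056 for Tef, -0.67 to 0.15 for Bhlhe40 and -1.49 to 0.40 for Bhlhe41.

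With the replicate block the counts called were 0, 0 and 1, as without it, and 0 of the 9 in each comparison. At an unadjusted p the block gave 4 of the 9 in REG against LFG in place of 2, adding Dbp and Bhlhe40, beside 8.61% of all genes in place of 11.3%. In hADMSCs-Exo against REG it gave 3 of the 9 in place of 2, adding Ciart, beside 9.52% of all genes in place of 10.0%. Rora in REG against LFG passed the threshold for p with voom (limma adjusted p = 0.0443) at a fold change too small to be called. Scaling by total counts moved the median log2 fold change of all genes in REG against LFG from -0.068 to -0.18.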

Other observations

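Other genes known to follow the clock in liver were measured beside the output regulators. Of the 6 listed, edgeR called 0 in any comparison with all libraries. DESeq2 called Noct (log2 -2.44, DESeq2 adjusted p = 0.00314) and Tsc22d3 (log2 -1.69, DESeq2 adjusted p = 0.00483) in REG against LFG and Noct in hADMSCs-Exo against REG (log2 1.09, DESeq2 adjusted p = 0.0215). In REG against LFG limma voom called 4 lower (Nampt, Noct, Lpin1 and Tsc22d3, from -2.42 to -1.07) and Gys2 higher (1.05, limma adjusted p = 0.0360). Noct, a cytoplasmic enzyme with a strong daily rhythm, stood at 55.1, 101 and 243 CPM in LFG 1 to 3, at 17.4, 21.1 and 34.0 in REG 1 to 3 and at 41.1, 50.8 and 63.0 in hADMSCs-Exo 1 to 3. Its REG libraries were below all others, and LFG 3 was the highest. Within LFG both Noct and Dbp were highest in LFG 3, while in REG Noct was low where Dbp was high. The log2 fold change of Noct was -2.46 ± 0.58 in REG against LFG (edgeR adjusted p = 0.309), -1.37 ± 0.52 in hADMSCs-Exo against LFG (edgeR adjusted p = 0.805) and 1.09 ± 0.27 in hADMSCs-Exo against REG (edgeR adjusted p = 0.380).

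Tsc22d3, a glucocorticoid-induced gene, stood at 163, 270 and 447 CPM in LFG, at 84.3, 81.9 and 101 in REG and at 69.4, 221 and 272 in hADMSCs-Exo. Its LFG libraries were all above those of REG (log2 -1.71 ± 0.38, edgeR adjusted p = 0.277), and hADMSCs-Exo 1 was below all of REG. Nampt, an enzyme of NAD synthesis, stood at 110, 90.6 and 108 CPM in REG and at 155, 164 and 133 in hADMSCs-Exo, without overlap (log2 0.55 ± 0.14, edgeR adjusted p = 0.394). In REG against LFG it was at -0.61 ± 0.36 with all libraries (edgeR adjusted p = 0.558) and at -0.84 ± 0.27 without LFG 3 (edgeR adjusted p = 0.0651). Lpin1 was lower in REG against LFG at an unadjusted p under 0.05 (log2 -1.50 ± 0.63, edgeR adjusted p = 0.439), and Wee1 and Gys2 reached it nowhere with all libraries. Gys2, the liver glycogen synthase, was then at 0.40 ± 0.59 in REG against LFG (edgeR adjusted p = 0.815) and 0.52 ± 0.58 in hADMSCs-Exo against LFG (edgeR adjusted p = 0.913). Without LFG 3, REG against LFG called Noct (fell 3.13-fold, log2 -1.65 ± 0.33, edgeR adjusted p = 0.0232), Tsc22d3 (fell 2.36-fold, -1.24 ± 0.24, edgeR adjusted p = 0.0199) and Gys2 (rose 2.68-fold, 1.42 ± 0.27, edgeR adjusted p = 0.0191), beside 10.7% of all genes. Lpin1 was then at -1.71 ± 0.60 (edgeR adjusted p = 0.0829). In hADMSCs-Exo against LFG without LFG 3, Gys2 was called (rose 2.88-fold, 1.52 ± 0.27, edgeR adjusted p = 0.0278), beside 5.97% of all genes, and Noct was at -0.58 ± 0.29 (edgeR adjusted p = 0.232).

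Of 8 clock kinases, ubiquitin ligases and the deacetylase Sirt1, edgeR called 0 with all libraries or without LFG 3, and DESeq2 and limma voom called 0 with all libraries. Gsk3b, a kinase that acts on clock proteins, stood at 36.4, 38.5 and 36.6 CPM in LFG and at 19.9, 22.6 and 24.8 in REG, with LFG 3 close to the other LFG libraries (log2 -0.72 ± 0.16, edgeR adjusted p = 0.291, and -0.69 ± 0.16 without LFG 3, edgeR adjusted p = 0.0327, a fold too small to be called). It stood at 23.0, 32.9 and 34.9 CPM in hADMSCs-Exo.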
